A study of Mus musculus with 42 samples.

Results

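Of 21 mouse mammary tumours, 5 carried high vimentin RNA, and this account sets those tumours, GC03-644-A, 646-A, 647-A, 649-A and 673-A, beside the other 16. They were picked by measured expression, on the genes Vim, Col1a1 and Lgals1 (high) and Epcam and Myc (low), so every difference between them and the 16 is a description and carries no test. The tumours descend from mammary neoplasms of FVB/N-Tg(WapMyc)212Bri mice, in which the Wap promoter, active in milk-secreting mammary epithelium, drives a c-Myc transgene, and all 21 share that origin. In vivo selection gave 4 lines, a glandular line, a pair of solid/comedo lines of which one was associated with metastasis to the lung, and a spindloid (mesenchymal) line. Each tumour RNA was set against a universal mouse reference RNA on 2 arrays with the dyes swapped. An array's label holds the name of its tumour but neither its line nor the age or sex of the animal, and they do not say whether the tumours came from separate animals, so "vimentin-high" names a profile and no histology.

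Epithelial cells adhere through junction proteins such as claudins and Epcam and carry keratin filaments, whereas mesenchymal cells move singly, carry vimentin filaments and lay down collagen-rich matrix. In epithelial-mesenchymal transition, carcinoma cells exchange the first set of proteins for the second under transcription factors of the Snail, Zeb and Twist families. Spindle-cell tumours are a known outgrowth of mouse mammary carcinomas, and tumour tissue also holds fibroblasts, vessels and macrophages that express many of the same genes.

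Each value is a log2 ratio centred on the median of its array, averaged over the 2 arrays of a tumour and turned so that positive most likely means tumour over reference. The direction as a whole is not settled by the labels. Its basis is that Krt8 (a luminal keratin of mammary epithelium), Hba-a1 (a globin chain of red cells) and Dbi lay on a single side on 41 of 42 arrays. It also rests on the assumption, not tested, that epithelium and blood mark tumour tissue more than the reference, a pool of RNA from mouse cell lines. The positive sign of these genes is therefore a choice. If it were wrong, "higher" and "lower" would change places throughout. Arrays gave 8600 to 21328 measured probes (median 17478.5). The raw ratios of a tumour's 2 arrays correlated at between -0.565 and 0.074, negative values being what a dye swap gives. In 5 tumours this correlation lay above -0.1, and 2 of them, 646 and 647, are among the vimentin-high tumours. Of 4 array measures that the choice of tumours did not use, 0 passed an adjusted p of 0.05 between the sets in an exact two-sided permutation test over 20349 arrangements (n = 5 and 16, Benjamini-Hochberg adjusted over the 4). The adjusted p was 0.659 for the number of probes with both arrays, for the raw correlation and for the spread between the 2 arrays, and 0.502 for the share of repeated top values. That share averaged 2.65% ± 1.41 (SD, n = 5) against 1.98% ± 0.54 (SD, n = 16), and with 646 left out its unadjusted exact permutation p was 0.0388.

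The genes that chose the tumours lay far apart between the sets. Vim, the intermediate filament of mesenchymal cells, stood at 0.26 in tumour 644, 1.23 in 646, 1.02 in 647, 0.98 in 649 and 0.31 in 673, while the 16 ran from -4.81 through a median of -3.92 to -3.15. The lowest vimentin-high tumour was thus 644 and the highest of the others was 639, with no tumour in between, and the means differed by 4.79 (SD 0.45 in each set), a 27.6-fold difference in the ratio. Epcam, an epithelial adhesion molecule, stood at -0.06, -2.62, -2.33, -2.37 and -1.22 in the same order of tumours, and at 1.31, 2.20 and 3.54 as the lowest, median and highest of the 16. All 5 lay below all 16, with a difference of -4.10 (SD 1.07 and 0.68). Myc, which stands for the transgene as well as the endogenous gene where a probe reads both, was -0.71, -0.40, -0.42, -0.21 and -0.23 against 1.65, 2.08 and 3.54. These 5 values lay close together (SD 0.20) and 2.68 below the mean of the 16 (SD 0.52). Whether the probe reads the transgene was not tested.

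Lgals1, which encodes the galactoside-binding lectin galectin-1, was 0.34, 1.29, 0.80, 1.08 and 0.71 against -4.97, -4.14 and -3.35 in the 16. Col1a1, a chain of type I collagen, was 2.94, 3.58, 2.01, 1.78 and 2.61 against -3.21, -1.77 and -0.66. Neither gene had a tumour of one set within the range of the other, and the differences were 32.1-fold and 19.5-fold. These genes chose the tumours, so their separation is no check of the label, and other epithelial genes, such as the keratins and Cldn4, overlapped between the sets.

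**Figure D1:**
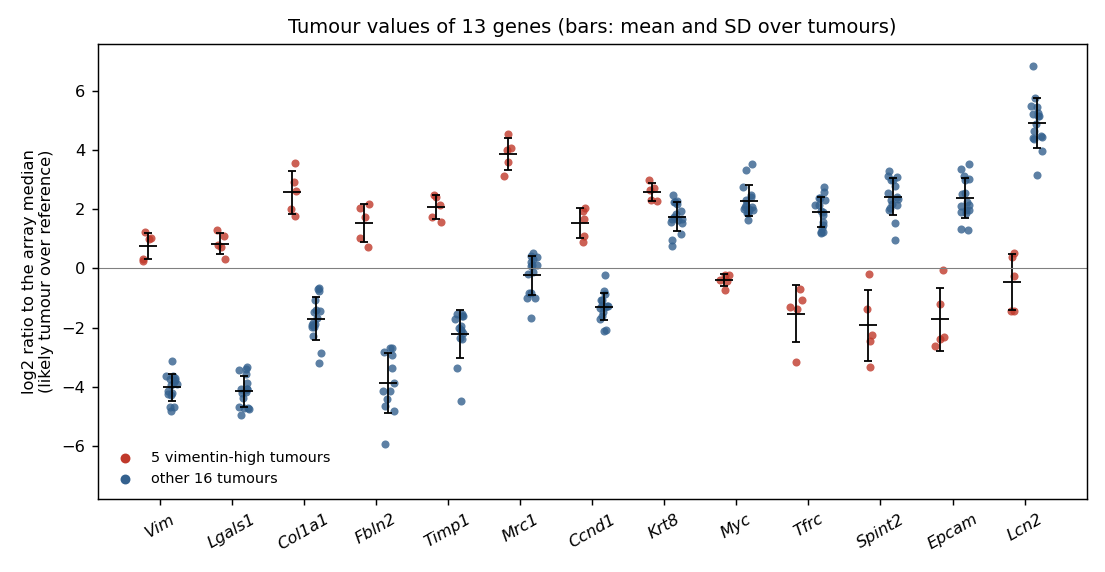
Log2 ratios to the array median (vertical axis) of 13 genes in each vimentin-high tumour (red points) and each of the other 16 (blue points), with means and SDs over tumours in black. The 5 red points lie above all blue points for Vim, Lgals1, Col1a1, Fbln2, Timp1, Mrc1 and Ccnd1 and below them for Myc, Tfrc, Spint2, Epcam and Lcn2, whereas Krt8 overlaps.

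Across the arrays 6717 genes could be compared, each through at least 1 probe that had a value in 4 or more of the 5 and 12 or more of the 16 tumours. Genes that reach these numbers only by combining probes were left out, among them S100a4, a motility gene with values in 5 and 12 tumours. A gene was counted as higher or lower where the sets did not overlap and the means differed by at least 1, which is 2-fold. By that count 405 genes were higher in the vimentin-high tumours (6.03% of those compared) and 97 lower (1.44%), together 7.47%. Differences of at least 8-fold without overlap numbered 75 upward and 8 downward, while the median over all genes was 0.05. As the tumours were chosen by expression, nothing is read from these shares, which serve as the background for the lists below. Some lists hold genes that chose the tumours, so their counts are partly set by that choice.

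**Figure D2:**
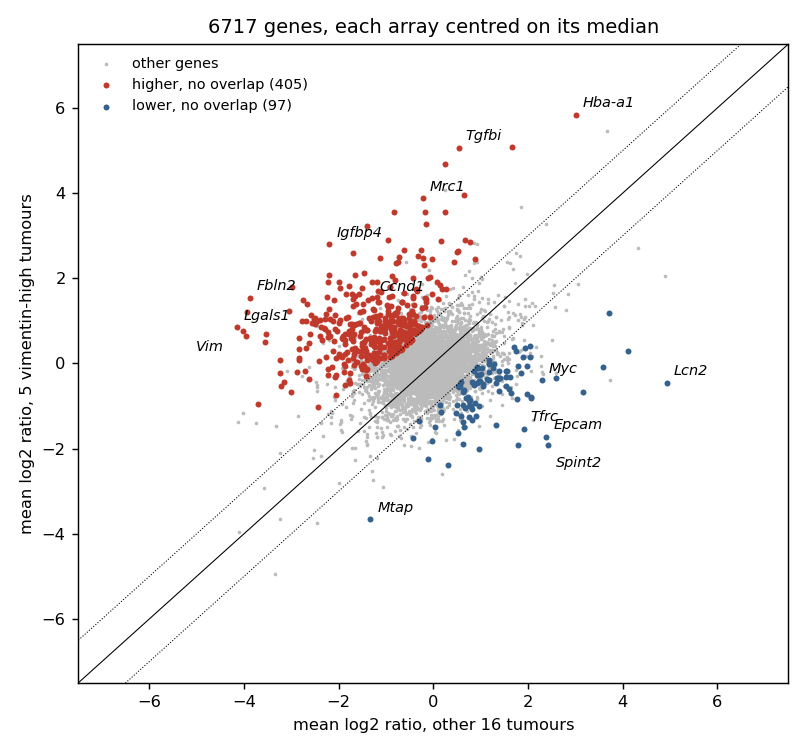
Mean log2 ratio of 6717 genes in the other 16 tumours (horizontal axis) and in the 5 vimentin-high tumours (vertical axis), with equality as a solid line and a difference of 1 as dotted lines. Red points are the 405 genes higher without overlap and blue points the 97 lower; Fbln2, Lgals1 and Vim lie far above the line and Lcn2, Epcam and Spint2 far below it.

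Matrix genes gave the largest upward differences. Of the genes compared, the one furthest up was Fbln2, whose product fibulin-2 binds fibronectin and elastic fibres, at 1.75, 2.17, 2.04, 0.74 and 1.02 against -5.95, -4.02 and -2.70 in 12 of the 16 tumours, a difference of 5.42 (SD 0.63 and 1.01). Col6a1, a chain of microfibrillar type VI collagen, followed at 1.62, 2.31, 1.74, -0.52 and 0.87 against -6.22, -3.69 and -3.09. Its difference was 5.14, and tumour 649 lay lowest of the 5 for both genes. Among fibrillar collagens and their processing enzymes, 8 of the 9 genes compared were higher and 0 lower, with a median difference of 2.98. Among the 8 was Col1a1, which helped to choose the tumours. The rest of the 8 included Col1a2 (3.72), Col5a2 (3.10) and Serpinh1, the collagen chaperone of the endoplasmic reticulum (3.03). The probes of Serpinh1 differed by 1.02 and 4.57, so its size depends on the probe. The exception was Lox, the cross-linking oxidase, at a difference of 2.84 with overlap, since tumour 647 (-2.12) and tumour 649 (-1.98) lay below the highest of the others (-1.92).

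Of 7 other collagens, 5 were higher, with a median difference of 3.25, among them Col6a3 (4.63), Col12a1 (3.43) and Col8a1 (3.25). Basement membrane collagen was nearer, at 1.67 for Col4a1 and 0.47 with overlap for Col4a2. Matricellular, proteoglycan and elastic fibre genes had 10 of 14 higher and a median of 3.25. Tnc, the adhesion-modulating glycoprotein tenascin-C, was 4.23, 3.91, 3.01, 2.83 and 3.75 against -2.76, -0.55 and -0.26. Tgfbi, a secreted adhesion protein induced by TGF-beta, was 3.78, 4.71, 4.87, 6.04 and 5.93 against -1.46, 0.70 and 2.69. Tumours 649 and 673 were the highest of the 5 for Tgfbi, whereas 649 was the lowest for Tnc. Thbs2 (4.26), Sparc (3.35) and Bgn (3.51) were higher too, and Fn1, fibronectin, was higher by 3.14, although its probes gave 1.10 and 5.18.

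Genes of the mesenchymal cytoskeleton and of motility formed the next group, with 13 of 17 higher, 0 lower and a median of 2.91. The 13 include genes that helped to choose the tumours, such as Lgals1. S100a6, a calcium-binding protein, was 0.29, 1.20, 0.70, 0.84 and 0.16 against -5.78, -3.92 and -1.59. Anxa2 (3.45), the actin-binding calponin Cnn2 (3.29), the tropomyosin Tpm1 (3.23), the membrane-cytoskeleton linker Msn (3.22) and Cd44, the hyaluronan receptor (2.49), were also apart. Smooth muscle actin, Acta2, was 0.49, 0.90, -1.13, -1.46 and 0.16 against -4.41, -2.74 and -2.04, so tumours 647 and 649 lay nearest to the 16. The related contractile gene Tagln overlapped, at 1.44, 0.98, -0.99, -1.01 and 0.50 against -2.87, -1.64 and -0.60, again with 647 and 649 lowest.

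Proteolysis genes had 4 of 12 higher and a median of 1.67. Timp1, an inhibitor of metalloproteinases, was 1.75, 2.49, 2.44, 2.14 and 1.56 against -4.47, -2.05 and -1.54. The proteinases Mmp2 (4.12) and Mmp14 (3.74), the latter an activator of the former, and the urokinase Plau (1.33) were the others. Of TGF-beta and BMP genes 2 of 12 were higher, the latent binding protein Ltbp2 (2.19) and the target gene Id3 (3.05), while Tgfb1 itself overlapped at 1.98. Igfbp4, which binds insulin-like growth factors, belonged to no list and differed 31.9-fold. Dab2, an endocytic adaptor, differed by 4.28. Lrp1, an endocytic receptor, differed by 4.78, at 1.63, 2.12, 2.41, 1.74 and 1.10 against -4.79, -2.91 and -1.85.

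Few transcription factors of the epithelial-mesenchymal state could be compared. Of 20 on the array 5 had enough values and 2 were higher, the repressor Zeb2 at 2.09 and the mesenchymal homeobox factor Prrx1 at 2.71. Of the 5 differences 3 were positive and 2 negative, the lowest at -0.80. By any of its probes, Zeb1 had values in all 5 vimentin-high tumours but in 5 of the 16 only, and Snai1 in 5 and 10. Snai2 had them in 5 and 11, Twist1 in 5 and 8 and Twist2 in 5 and 9. Medians of the measured tumours were higher in the 5 for Zeb1 (0.69 against -2.78), Snai1 (2.0 against -0.33) and Twist1 (-0.2 against -1.15). They were lower in the 5 for Snai2 (-1.38 against -0.62) and, slightly, for Twist2 (-0.9 against -0.81). On the epithelial side the gap differed by gene. Esrp2, a splicing regulator of epithelia, had values in 0 of the 5 and 7 of the 16, and Ehf, an epithelial ETS factor, in 0 and 7. Elf3 had them in 1 and 14 and Grhl1 in 1 and 7. Nearer to level were Elf5 (1 and 4), Ovol1 (1 and 5) and Ovol2 (1 and 5). Esrp1, with values in 2 of the 5 and 5 of the 16, had the larger share in the 5. A missing value can be a dim or a rejected spot, and the labels do not say which. Over all genes 69.9% of tumour values were present in the 5 and 64.9% in the 16. For fibrillar collagen genes these shares were 94.4% and 74.0%, and for epithelial junction genes 57.7% and 64.4%. The number of named probes present often enough in the 5 but not in the 16 was 2381, against 293 the other way, so the comparison leaves out many genes that were seldom measured in the 16.

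**Figure D3:**
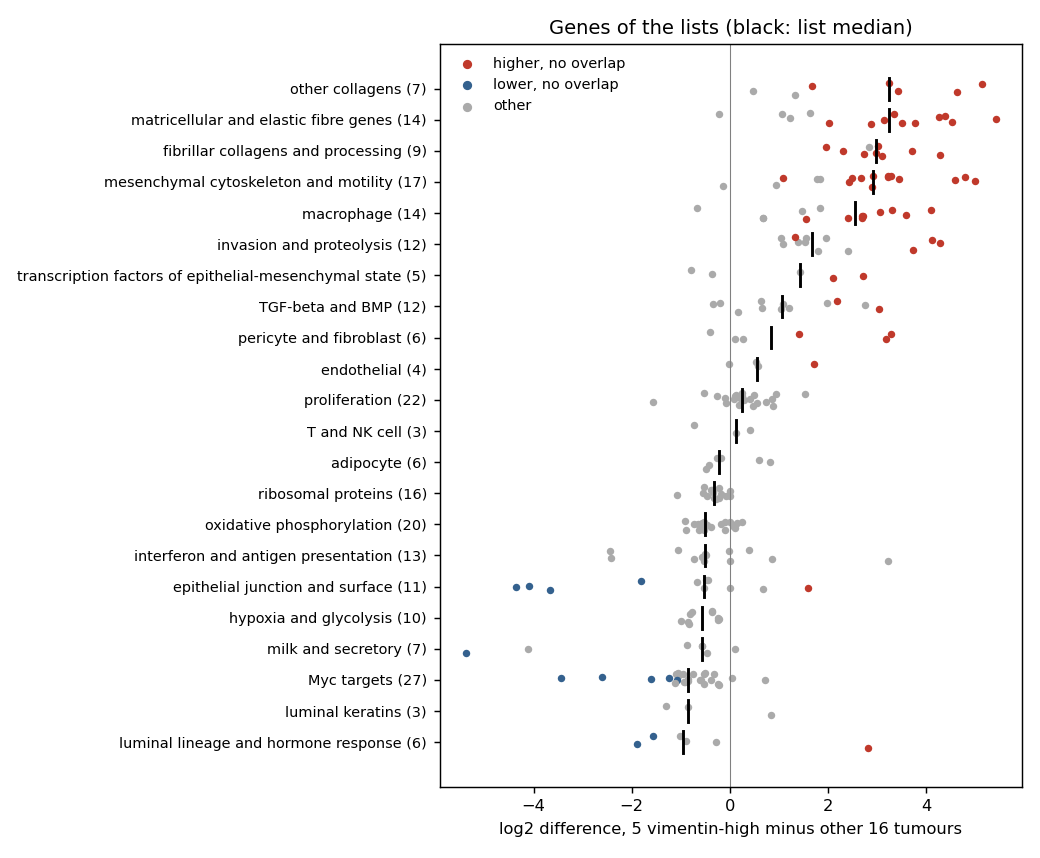
Log2 difference between the mean of the 5 vimentin-high tumours and the mean of the other 16 (horizontal axis) for the genes of each list with at least 3 genes compared, their number in brackets. Red points are higher without overlap, blue points lower without overlap, and black bars are list medians, which run from 3.25 for other collagens to -0.96 for luminal lineage genes.

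Epithelial junction and surface genes differed in both directions. Of 11 compared, 4 were lower, 1 was higher and the list's median difference was -0.53. The 4 include Epcam, which helped to choose the tumours. Spint2, a membrane inhibitor of serine proteases, was -0.18, -2.26, -2.47, -3.34 and -1.38 against 0.97, 2.38 and 3.28, a difference of -4.35 (SD 1.20 and 0.62). Cldn7, a tight junction claudin, was 0.52 in 644, -0.81 in 647, -1.0 in 649 and 0.99 in 673, with no value in 646, against 1.30, 3.56 and 5.04. The adhesion molecule F11r was lower by 1.81. For Spint2 and Epcam, tumour 644 was the nearest of the 5 to the others and 673 the next, and for Cldn7 673 and then 644. Tjp1, the junction scaffold ZO-1 that many cell types also express, was higher by 1.58, and Cldn4 (-0.67), Jup (0.68), Pkp3 (-0.45) and Perp (0.01) overlapped. E-cadherin, Cdh1, had values in 2 of the 5 and 5 of the 16 and was not compared.

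Luminal keratins did not separate the sets. Krt8 was 2.31, 2.72, 2.64, 3.01 and 2.28 against 0.77, 1.72 and 2.48, with overlap and a difference of 0.84. It is 1 of the genes whose mean set each array's direction, so its sign against the reference is no finding. Its partner Krt18 went the other way, at -1.48, -1.07, -0.41 and -0.96 in the 4 tumours with a value against -2.95, 0.62 and 1.04. Of basal and myoepithelial genes 2 could be compared, with 0 apart, and Itgb4, an integrin of hemidesmosomes, differed by 1.87. Krt7 was 3.33 in tumour 644 and -1.13, -0.76 and -0.72 in 647, 649 and 673, against -0.20, 1.02 and 2.68. Tumour 644 was thus above all 16 for Krt7 while 3 others of the 5 were below all of them.

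Among milk and secretory genes 1 of 7 was lower. This was Lcn2, an iron-carrier-binding defence protein of secretory epithelium and neutrophils, at 0.38, -1.43, -0.26, -1.45 and 0.52 against 3.17, 5.03 and 6.87. Its difference of -5.38 (SD 0.95 and 0.84), or 41.6-fold, was the largest downward difference of the genes counted as lower. Csn2, the milk protein beta-casein, differed by -4.11 but overlapped, because the 16 ran from -0.13 to 7.43. Pglyrp1, which binds bacterial cell walls, was lower by 3.83, as was Cited4, a transcriptional co-activator. Outside the lists the interferon-induced Rtp4 (-3.70), the nuclear pore protein Nup210 (-2.97), the mitochondrial sulphurtransferase Tst (-2.93) and the imprinted splicing protein Snrpn (-2.87) were lower. So were the aminoacylase Acy1 (-2.86), the secreted phospholipase Pla2g12a (-2.78), the endotoxin co-receptor Ly96 (-2.69) and the immediate early receptor Nr4a1 (-2.68). These completed the 15 largest downward differences, beside Lcn2, Pglyrp1, Cited4, Epcam, Spint2, Cldn7 and Tfrc. The luminal regulators Xbp1 (-1.57) and Id2 (-1.89) were lower, Gata3 overlapped at -1.03, and Ccnd1, the cyclin that drives entry into S phase, was higher. Ccnd1 stood at 0.91, 2.05, 1.68, 1.93 and 1.09 against -2.11, -1.28 and -0.23, a difference of 2.82 (SD 0.51 and 0.47), in the tumours where Myc was lowest.

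Most targets of Myc had negative differences of smaller size. Of 27 compared, 25 had a negative difference, 5 were lower without overlap and 0 higher, with a median of -0.85. The transferrin receptor Tfrc, which imports iron, was -3.18, -0.70, -1.38, -1.08 and -1.32 against 1.19, 1.94 and 2.75, a difference of -3.44. Shmt1, of one-carbon metabolism (-2.61), nucleolin, Ncl (-1.61), the ribosome biogenesis factor Rcl1 (-1.25) and the chaperonin subunit Cct4 (-1.08) were the others. The probes of Cct4 gave -0.33, with overlap, and -1.84. Those of Ncl gave -2.2 and -1.02, each with overlap, so only their average lay apart. Odc1, the polyamine enzyme, lay on the other side at 0.72 with overlap. Proliferation genes had 0 of 22 apart in either direction and a median of 0.24. Ribosomal protein genes (median -0.33, 14 of 16 negative), oxidative phosphorylation (-0.50, 16 of 20 negative) and hypoxia and glycolysis genes (-0.57, 10 of 10 negative) also had 0 counted in either direction. A mostly negative sign was thus not particular to the Myc targets. The most different members of the proliferation list and of these lists, all with overlap, were Aurka, a mitotic kinase (-1.57), Rpl32 (-1.07), Ndufa9 of respiratory complex I (-0.92) and Pfkl, a phosphofructokinase of glycolysis (-1.0).

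Among markers of other cell types, those of macrophages separated the sets. These are bulk tissues, in which fewer cells of a type and less RNA per cell cannot be told apart. Of 14 macrophage genes 9 were higher, with a median difference of 2.55, and the list's median ran from 1.51 to 1.99 in the 5 tumours and from -1.59 to 0.80 in the 16. Mrc1, the mannose receptor, was 3.13, 4.56, 3.61, 4.08 and 4.00 against -1.68, 0.07 and 0.51. The Fc receptor Fcgr2b (3.59), the scavenger receptor Msr1 (3.31), Laptm5 (3.05) and Tyrobp (2.70) were higher, Ms4a7 (-0.67) and Mpeg1 (1.46) overlapped, and Lyz2 was higher by 1.56 with probes at -0.36 and 3.53. Ccl6, a chemokine of myeloid cells, was 4.91, 3.88, 3.52, 5.49 and 5.63 against -2.05, 0.23 and 1.93.

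Of 6 genes of pericytes and fibroblasts 3 were higher, namely Des (3.29), Gsn (3.19) and Cd34 (1.40), and the list's median ran from 0.67 to 1.37 in the 5 against -1.67 to 2.26 in the 16. Endothelial genes had 1 of 4 higher (Cldn5, 1.71), with list medians from 0.33 to 1.35 against -1.12 to 1.00. Neither T and NK cell genes (3 compared) nor adipocyte genes (6) nor skeletal muscle genes (1) had any gene apart, the most different being Cd8a (-0.72), Car3 (0.81) and Pygm (0.58), and 0 of 10 B and plasma cell genes could be compared. Of 2 erythroid genes Hba-a1 was higher by 2.84. A log ratio has no true zero, so no marker can be called at 0. The part of macrophages, fibroblasts or vessels in the differences of matrix and cytoskeleton genes was not tested.

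Interferon and antigen presentation genes had 0 of 13 counted in either direction, and Usp18, a brake on interferon signalling, was the single gene without overlap, at a difference of -0.74. Isg15 (-2.44) and Irf7 (-2.42) overlapped because the 16 ran from -1.73 to 2.49 and from -2.19 to 2.46. Cd74, the MHC class II invariant chain, overlapped at 3.22. The list's median difference was -0.50 over all tumours and 0.40 within the third slide run.

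Promoter sequences were read for genes at both ends of the comparison, to show whether the letters bound by E-box repressors and by Myc stand there. Factors of the Snail and Zeb families bind the E-box CACCTG, and Myc with its partner Max binds CACGTG. The 250 bases before the start of Vim, Epcam and Spint2 in RefSeq's GRCm38.p6 are given 5′ to 3′ on the gene's strand, with every match of either motif on either strand in capitals, so that CAGGTG is CACCTG on the opposite strand. Vim lies at chr2:13574061-13574310 (plus strand), Epcam at chr17:87635729-87635978 (plus strand) and Spint2 at chr7:29281978-29282227 (minus strand).
Vim: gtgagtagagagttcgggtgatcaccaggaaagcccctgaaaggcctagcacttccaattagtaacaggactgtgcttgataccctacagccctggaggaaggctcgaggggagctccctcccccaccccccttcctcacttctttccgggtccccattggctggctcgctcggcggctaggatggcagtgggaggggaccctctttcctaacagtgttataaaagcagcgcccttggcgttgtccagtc
Epcam: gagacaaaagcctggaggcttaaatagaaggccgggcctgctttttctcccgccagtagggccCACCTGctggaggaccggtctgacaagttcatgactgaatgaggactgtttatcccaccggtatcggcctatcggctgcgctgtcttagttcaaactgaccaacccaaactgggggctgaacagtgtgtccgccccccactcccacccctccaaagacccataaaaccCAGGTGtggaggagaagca
Spint2: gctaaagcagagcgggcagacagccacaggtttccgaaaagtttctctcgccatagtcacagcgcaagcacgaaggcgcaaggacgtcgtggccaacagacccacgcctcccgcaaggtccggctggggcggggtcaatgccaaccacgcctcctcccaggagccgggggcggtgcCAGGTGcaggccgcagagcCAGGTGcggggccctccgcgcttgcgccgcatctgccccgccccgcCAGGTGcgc
Vim has no match in this window, Epcam has CACCTG from bases -187 and -19, and Spint2 has it from -74, -55 and -9, counted from the start site, while a CACGTG of Epcam begins at base 31 after it. Over 300-base windows that reach 50 bases past the start, CACCTG on either strand stood in 17 of 65 promoters of the lower genes (26.2%), 25 of 246 of the higher genes (10.2%) and 712 of 4368 of the genes compared (16.3%). The share was 20.0% of all 22862 promoters in the table. CACGTG stood in 12.3%, 8.94%, 10.5% and 7.12% of the same 4 sets. Single genes went both ways. Of the lower genes, Lcn2 and Cited4 had no CACCTG in the 300-base window, whereas Pglyrp1, Nup210, F11r and Xbp1 had it. Of the higher genes, Col8a1 had it from base -18 and Ltbp2 from -223, whereas Col1a2 and Mrc1 had none. A match is a description of letters, not a site of binding, and the shares were not tested.

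Whether the 5 tumours differ from each other can be tested, since the choice of tumours against the 16 did not use these differences. By limma's moderated F test across 7086 genes with values on all 10 arrays, 3 genes passed an adjusted p of 0.05 (0.0423% of those tested), and 183 had an unadjusted p below it. The p-values measure the error between 2 hybridisations of an RNA, not the spread between animals. Mgp, matrix Gla protein, an inhibitor of calcification, was 6.86 in 644, 4.41 in 646, 4.48 in 647, 2.11 in 649 and 2.46 in 673 (SE 0.40, limma adjusted p = 0.000375). Tumour 644 was the highest, 646 and 647 were level and 649 and 673 the lowest, and 649 lay below the highest of the 16 (2.30). Tmem176b, a membrane protein of dendritic cells among others, was 1.01, -0.23, -0.31, -2.30 and -1.19 (SE 0.36, limma adjusted p = 0.0491). Hba-a1 was 5.78, 5.15, 4.80, 4.84 and 8.65 (SE 0.48, limma adjusted p = 0.0495), so tumour 673 stood above the rest, while 647 lay just above the highest of the 16 (4.77). Hba-a1 is also 1 of the genes that set each array's direction.

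Each tumour was then set against the mean of the other 4 in the same fit. Mgp was higher in 644 by 3.50 (SE 0.45, limma adjusted p = 0.000256) and Hba-a1 higher in 673 by 3.51 (SE 0.54, limma adjusted p = 0.00509), each the 1 gene called for its tumour (0.0141% of the 7086 tested). By limma no gene passed for 646, 647 or 649. There 181, 139 and 48 genes had both an unadjusted p under 0.05 and a difference of at least 1. The next genes did not pass the F test. Acta2 and Dio1, the thyroid hormone deiodinase, both had a limma adjusted p of 0.118, Atp1b1 0.171, Tagln 0.282, Zfp316 0.373 and Prr5l 0.535. Dio1 was 3.71, 0.38, 1.44, 0.86 and 3.90, high in 644 and 673, and H19, an imprinted noncoding RNA, was 0.94, 2.56, 0.17, 0.19 and 2.95, with a limma adjusted p of 0.535. The fit on the 10 arrays alone gave 0 genes, quantile normalization 0 and leaving arrays uncentred 1, and in these Mgp had limma adjusted p-values of 0.261, 0.163 and 0.0738. With any 1 of the 10 arrays left out, Mgp passed the F test each time, at limma adjusted p-values of up to 0.0115. The contrast of 644 against the other 4 had by limma 0 genes higher once replicate 1 of 644 was left out, 0 with quantile normalization and 0 on the 10 arrays alone. With the first array of 646 left out the F test gave 7 genes and the contrasts 62 in place of 2. Hba-a1 had an adjusted p of 0.98 by limma without the second array of 673, and Tmem176b one of 0.416 without the second array of 649.

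**Figure D4:**
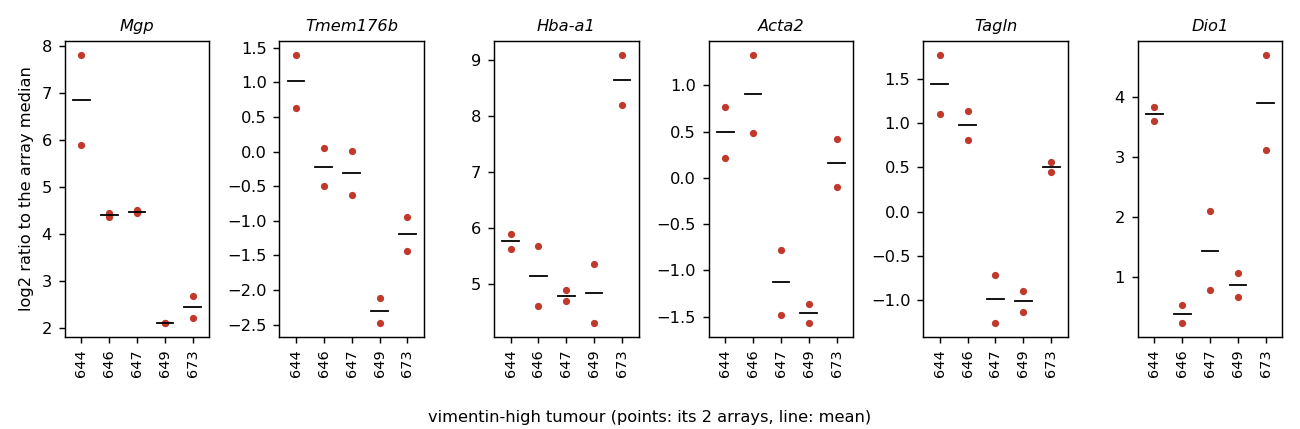
Log2 ratio to the array median (vertical axes, each on its own scale that does not start at 0) of 6 genes in the 5 vimentin-high tumours, with both arrays of a tumour as points and their mean as a line. Mgp is highest in tumour 644 and Hba-a1 in tumour 673, and Acta2 and Tagln are lowest in 647 and 649.

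Similarity between tumours is given as a description. Over 3357 genes with a value in every tumour once probes were averaged, each centred midway between the means of the sets, their 10 pairs correlated at a median of 0.511 (0.208 to 0.671), pairs of the 5 with the 16 at -0.442, and the 120 pairs among the 16 at 0.232 (-0.11 to 0.861). This centring by itself makes pairs within a set positive and pairs across the sets negative, and the choice of tumours used the same values. The median SD of a gene among the 5 was 0.38 against 0.62 among the 16, and of the 502 genes counted in either direction 427 had the smaller SD among the 5. Sets of 5 and 16 tumours estimate an SD with unequal precision, and the smaller SD was not tested.

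Slide run, read from running numbers in the titles and not called a batch by the labels, was unevenly spread, with 644 in run 1, 646 in runs 1 and 3, and 647, 649 and 673 in run 3. Within run 3, 3 vimentin-high tumours and 5 others gave differences of 4.98 for Vim, 4.05 for Col1a1, 3.93 for Mrc1, -4.50 for Epcam and -2.67 for Myc. Tumour 644 against the 3 others of run 1 gave 4.11, 4.71, 3.78, -2.91 and -2.85. With the 5 tumours of weak agreement between arrays left out, they were 4.58, 4.09, 3.80, -3.53 and -2.60.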

How the data were processed

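RNA of 21 tumours was measured on 42 two-colour arrays, 2 per tumour with the dyes swapped, per the labels' protocol. The deposited table held 22800 probes and 726515 values that were log2 ratios, a scale read from the values; for image processing, background correction, normalization and dye orientation the method was not given in the sources used. The top value, 16.61, which is log2 of 100000, recurred 15512 times and was set missing. An array was multiplied by -1 where the mean of its Krt8, Hba-a1 and Dbi values was negative, which put the 2 arrays of each of 21 tumours in opposite directions; turning by the first eigenvector gave the same for 42 arrays. The array median was subtracted and both arrays of a tumour averaged, both being required. Arrays of 1 orientation correlated at a median of 0.296 and no lower than -0.239.

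Genes were named through the platform annotation, where 16874 probes had 1 symbol (16196 matched a RefSeq entry), 134 several and 5792 none. Probes of a gene were averaged (253 genes had several). The 5 against 16 comparison used no test. Differences among the 5 were tested with limma 3.58.1 in R 4.3.3 by a fit of 21 tumour means, a moderated F test and Benjamini-Hochberg adjustment, and each tumour against the other 4 by a contrast with a difference of at least 1. Array measures were compared by exact permutation over all arrangements, computed in Python 3.11.15 with numpy 2.4.6. The limma and turning steps were tested on simulated data. The small number of arrays limits the precision of each value. Alternatives are given in the closing section.

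The tumours and the 26 gene lists were chosen with earlier results of these data known. The genes described are the 5 that chose the tumours, the 15 highest and 15 lowest without overlap, up to 4 per list (the largest where none was apart), and the 10 with the smallest p among the 5. Bgn, Cct4, Cd44, Cd74, Cldn4, Cnn2, Col4a1, Col4a2, Csn2, Fn1, Gata3, Irf7, Isg15, Jup, Krt7, Krt8, Lox, Lyz2, Mpeg1, Ms4a7, Msn, Odc1, Perp, Pkp3, Sparc, Tgfb1, Tjp1, Tpm1, Tyrobp and genes with too few values (Cdh1, Ehf, Elf3, Elf5, Esrp1, Esrp2, Grhl1, Ovol1, Ovol2, S100a4, Snai1, Snai2, Twist1, Twist2, Zeb1) were added after their values were seen.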

Additional observations from a re-analysis of the deposited data

Results flagged for a closer look

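In 79 genes the lowest and highest of the 5 vimentin-high tumours were compared with the nearest of the other 4, and in 3 of them a single tumour stood apart by more than Dixon's limit. Chance gives about 1 in 20 such groups. The 79 include the 10 genes with the smallest p among these same tumours, Hba-a1 among them. That share does not apply to genes picked in this way. Hba-a1 was 8.65 in tumour 673, with 4.80 to 5.78 in the other 4, a gap of 0.745 of the whole range. Id2, an inhibitor of helix-loop-helix factors, was -1.57 in tumour 673, with -1.05 to -0.88 in the others (gap 0.754). Tfrc was -3.18 in tumour 644, with -1.38 to -0.70 in the others (gap 0.726).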

How the results depend on the processing

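The 61 genes named without overlap kept their direction in all 1074 values over the alternatives run (22 of 1013 outside run 1 overlapped). Alternatives that only leave out tumours or take medians cannot reverse a gene without overlap where its probes stay the same. Their values, and those of the genes that chose the tumours, are therefore no check of direction. List medians took the other sign in 26 of 416 values, 24 of them in lists whose median lay within 1 of 0. The counts of higher and lower genes were 182 and 51 over genes with a probe measured in all 21 tumours (3326 genes, 180 and 51 of the 405 and 97 among them), 832 and 255 with 2 tumours per set enough (12075 genes), 778 and 243 within slide run 3, and 1127 and 1650 within run 1 (1 tumour against 3). With slide run as a block 156 genes were lower, and 183 without the 5 tumours of weak array agreement; this last choice and run 1 were made after seeing the data. Leaving out each of the 5 gave 397 to 480 higher and 77 to 103 lower. The median of the factors of the epithelial-mesenchymal state became -0.07 where 1 array was enough and -0.80 over genes with all tumours (1 gene). Among the 5, genes passing the F test numbered 1 with the top value kept, 1 without centring, 0 with quantile normalization, 0 on the 10 arrays alone and 1 to 7 with an array left out. Contrasts of 1 tumour against 4 gave 5 with the top value kept, 5 without dim values, 6 with dye orientation as a covariate, 0 on the 10 arrays alone and 2 to 62 with an array left out. Mgp had a limma adjusted p of 0.0738 without centring, 0.163 with quantile normalization and 0.261 on the 10 arrays alone. The exact p of the share of top values ran from 0.0388 (without 646) to 0.777 with a tumour left out. The cause of these changes was not tested. No paired analysis was possible because replicate numbers only name the 2 arrays of a tumour.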
